A study of Mus musculus with 6 samples.

Results

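The classical SR protein genes were described in newly made RNA of mouse embryonic stem cells. They are Srsf1 to Srsf7, Srsf9, Srsf10 and Srsf11, 10 of the 55401 gene rows of the deposited table. They were taken by symbol, with earlier results of these data known, and each of the 10 matched 1 row. The cells belong to the line labelled 129/Ola and were grown with leukemia inhibitory factor. In them the zinc finger protein ZFP207 is fused to an auxin-inducible degron (AID), so that IAA (indole-3-acetic acid, an auxin) directs it to the proteasome. There were 3 control libraries labelled AID 0h, whose genotype label reads WT, and 3 depleted libraries labelled AID 5h, whose genotype label names the degradation of ZFP207. The controls were read as the degron line without IAA. No cells without the degron that received IAA were analysed here, so the hormone and the loss of the protein cannot be told apart. RNA carrying 4-thiouridine (4sU) had been biotinylated and captured on beads, which weighs the values towards recent transcription. The series' text calls the replicates independent. Whether that means separate cultures, whether the degron line was 1 clone, and how long the 4sU pulse lasted were not given in the sources used here.

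SR proteins bind exonic enhancers in pre-mRNA through RNA recognition motifs. Through a tail rich in arginine and serine (the RS domain) they help U1 snRNP and U2AF settle on nearby splice sites. SRPK and CLK kinases phosphorylate that tail, which sets their location and activity. The genes also limit themselves: many of their transcripts can include a poison exon or keep an intron, and such transcripts are destroyed by nonsense-mediated decay or held in the nucleus. ZFP207, also known as BuGZ, is studied in this series for its part in U1 snRNP function. Counts per gene do not separate productive from poison-exon transcripts, so what follows concerns the summed output of each gene.

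Libraries held 14336811 to 25916628 counts, and a member had between 404 and 18398 of them in a library. Levels are given in CPM, counts relative to the library size after TMM scaling. The 10 stem cell markers, Pou5f1, Sox2 and Nanog among them, were all detected and summed to 4696 to 5176 CPM in controls and 4923 to 5563 in depleted libraries. Of 8 fibroblast markers, Col3a1, Dcn and Lum were at 0 in every library, and the sum ran from 50.2 to 87.4 and from 58.1 to 89.6 CPM, most of it Vim. The 8 primitive endoderm markers summed to 108 to 177 and 113 to 188 CPM, most of it Lama1. The 9 early differentiation markers summed to 53.1 to 100.2 and 53.6 to 98.2 CPM, most of it Otx2. Of these, Pax6, Eomes, Nes and Sox1 were also detected in every library, and the mesoderm gene T was at 0. The stem cell markers had a median log2 fold change of 0.13, with 8 of 10 above 0, against 52.3% of all genes. The paired fit described further on called 2 of them higher, Utf1 and Klf4, and 0 lower. It called 4.96% of all genes higher and 7.9% lower. The part of other cell types in the results was not tested. Both libraries numbered 2 stood apart from the rest on the first principal component (32.4% of the variance), at 83.5 for the control and 31.9 for the depleted one, with the other 4 below 0. The second component (25.8%) separated the groups. On it, replicates 1 to 3 lay at -44.2, -12.4 and -54.3 in controls and at 20.3, 71.3 and 19.2 in depleted libraries. Zfp207 itself stood, in replicates 1 to 3, at 545, 1116 and 548 CPM without IAA and at 695, 1467 and 596 CPM with it. It was not called in the unpaired edgeR fit (log2 fold change 0.32, adjusted p = 0.823) and was called higher in edgeR with the replicate number as a block (0.29, adjusted p = 0.0196). A degron acts on the protein, so this RNA does not check the depletion.

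After 5 h of IAA the SR protein genes had a median fold change slightly above that of all genes, and Srsf1 and Srsf5 were the members called, in 1 of the 2 edgeR fits. The median log2 fold change (depleted over control) of the 10 genes was 0.17, beside 0.02 over all 17573 genes that passed the filter on low counts and 0.08 over 9690 genes under 30 kb, a limit that each of the 10 genes meets (3.8 to 28.2 kb). All 10 passed that filter, and 9 had a value above 0, against 52.3% of all genes. In edgeR's quasi-likelihood test without a block, 0 of 10 were called at an adjusted p under 0.05, where 0.0114% of genes were called higher and 0.78% lower. At an unadjusted p under 0.05 this test held 1 member, Srsf5, which was higher, as were 2.68% of all genes. DESeq2 called 0 members after adjustment, with 0.353% of all genes higher and 3.29% lower. In a fit that took the replicate number as a block (the paired fit), Srsf1 and Srsf5 rose and 0 members fell. That fit called 4.96% of all genes higher and 7.9% lower, and 6.57% of the genes under 30 kb higher.

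The members' median difference was largest in pair 2. Of the 10 genes, 8 were higher in the depleted library of pair 1, 10 in pair 2 and 7 in pair 3, with median log2 differences of 0.12, 0.26 and 0.050, beside -0.01, 0.05 and -0.01 for all genes. The share of all genes that were higher in a single pair was not counted. A higher level in all 3 pairs was found for 7 members, Srsf1, Srsf3, Srsf4, Srsf5, Srsf9, Srsf10 and Srsf11, against 24.2% of all genes and 28.2% of genes under 30 kb. The other members, Srsf2, Srsf6 and Srsf7, were lower in at least 1 pair, and 0 members were lower in all 3, where 24.1% of all genes were. All depleted libraries lay above all controls for 3 members, Srsf1, Srsf3 and Srsf5, against 6.94% of all genes. With counts scaled to library totals only, the members' median was 0.10, beside -0.04 over all genes. In the unpaired fit the members' median was 0.21 when control replicate 2 was left out and 0.05 when depleted replicate 2 was. The paired fit without replicate 2 gave 0.08 and called Srsf5 only, as it did without replicate 3.

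**Figure D1:**
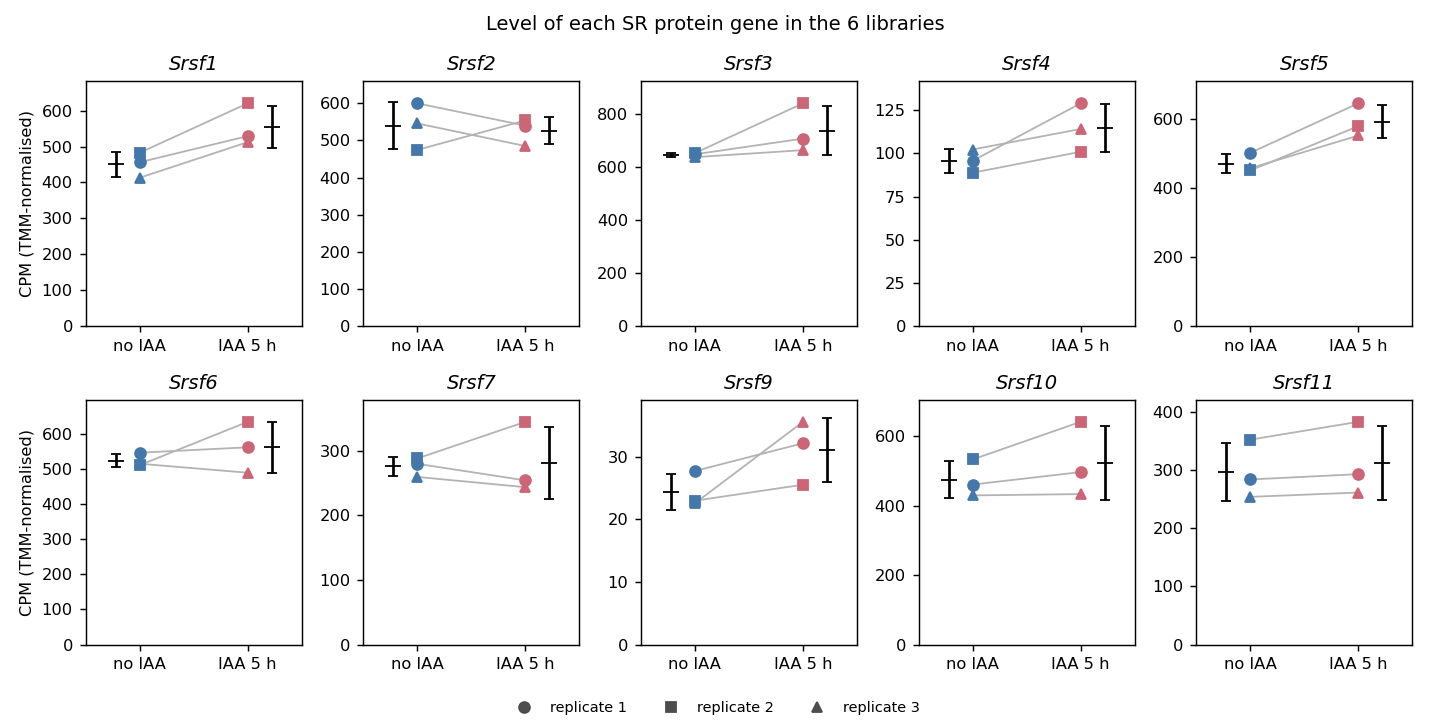
Level of each of the 10 SR protein genes in CPM (vertical axes, each from 0) in libraries without IAA (blue) and after 5 h of IAA (red), where symbols give the replicate number, grey lines join equal numbers and black bars are mean ± SD (n = 3). Srsf1, Srsf3 and Srsf5 have every depleted library above every control, and the square of replicate 2 is the highest depleted point for Srsf1, Srsf2, Srsf3, Srsf6, Srsf7, Srsf10 and Srsf11.

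Srsf1, Srsf3 and Srsf7 encode SR proteins that shuttle between nucleus and cytoplasm. SRSF1, first known as ASF/SF2, is the best studied of the family and stabilises U1 snRNP at 5' splice sites. Srsf1 (chromosome 11, 88046499 to 88053757, mm10) had 456, 482 and 413 CPM in controls, in the order of replicates 1 to 3, and 529, 620.3 and 512 CPM in depleted libraries. Every depleted library was above every control, and the highest value was that of depleted replicate 2. The mean went from 450.5 ± 35.1 to 554 ± 58.2 CPM (SD, n = 3), a 1.23-fold difference with a log2 fold change of 0.30. The unpaired edgeR fit did not call it (95% interval -0.02 to 0.61, adjusted p = 0.492), while the paired edgeR fit did (interval 0.15 to 0.44, adjusted p = 0.0136).

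SRSF3, the shortest of these proteins, serves as an adaptor for mRNA export together with SRSF7. Srsf3 (chromosome 17, 29032660 to 29043372) had 647, 652 and 637 CPM in controls and 706, 839 and 663 CPM in depleted libraries. The groups did not overlap, although depleted replicate 3 was only just above the highest control. The log2 fold change was 0.19, with an interval of -0.12 to 0.50 in the unpaired fit. The paired fit gave 0.18 (interval 0.02 to 0.34), and neither edgeR fit called the gene (adjusted p = 0.688 and 0.128). Srsf7 (chromosome 17, 80200080 to 80207369), whose protein also carries a zinc knuckle, had 279.7, 288 and 259 CPM in controls and 254, 345 and 243 CPM after IAA. Depleted replicate 2 was the highest of the 6 libraries and the other depleted libraries were the lowest, so the groups overlapped. The paired log2 fold change was 0.01, with an interval of -0.18 to 0.20 (edgeR adjusted p = 0.961).

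SRSF2, also called SC35, is a protein of nuclear speckles. Srsf2 (chromosome 11, 116849897 to 116853675) had 600.01, 474 and 546 CPM in controls and 539.8, 554 and 485 CPM in depleted libraries. It was the 1 member with a fold change below 0, at -0.04 in the unpaired fit, and the libraries of the groups were interleaved. The 95% interval ran from -0.36 to 0.28 in the unpaired and from -0.21 to 0.15 in the paired edgeR fit (adjusted p = 0.957 and 0.847). The value was positive without control replicate 1 (0.05) or depleted replicate 3 (0.01).

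Srsf4, Srsf5 and Srsf6 encode the SR proteins once named SRp75, SRp40 and SRp55, which share a pair of RNA recognition motifs. Srsf5 (chromosome 12, 80945495 to 80950507) had 502, 451 and 458 CPM in controls and 646, 579.9 and 553 CPM after IAA. The groups did not overlap, and the log2 differences of the 3 pairs were close, at 0.36, 0.36 and 0.27. The mean rose 1.26-fold, from 470.4 ± 27.8 to 593 ± 48.0 CPM. The log2 fold change of 0.33 had an interval of 0.04 to 0.63 in the unpaired edgeR fit, where it missed the threshold after adjustment (adjusted p = 0.389), and of 0.19 to 0.48 in the paired edgeR fit (adjusted p = 0.00652). With any 1 pair left out, the paired edgeR fit still called it, with an adjusted p between 0.0275 and 0.0433, whereas the adjusted p of Srsf1 then ran from 0.0318 to 0.0824.

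Srsf4 (chromosome 4, 131873530 to 131901725) had 95.8, 88.8 and 102 CPM in controls and 129, 101 and 114 CPM in depleted libraries. It was higher in each pair, but depleted replicate 2 lay just below the highest control. The log2 fold change was 0.26 in either fit, with an interval of -0.08 to 0.60 unpaired and 0.06 to 0.45 paired. Neither edgeR fit called it (adjusted p = 0.588 and 0.0788). Srsf6 (chromosome 2, 162931508 to 162937121) had 547, 511 and 515 CPM in controls and 562, 635 and 489.9 CPM after IAA. The depleted libraries thus spanned the whole range of the controls. The unpaired log2 fold change was 0.10 (interval -0.22 to 0.42, edgeR adjusted p = 0.856), and the paired interval ran from -0.08 to 0.27.

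**Figure D2:**
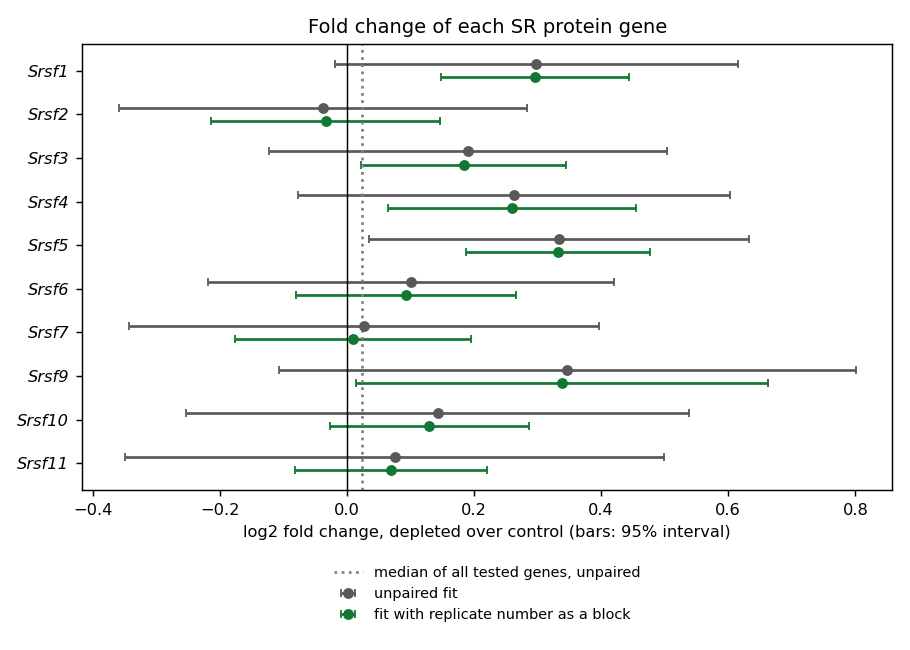
Log2 fold change (depleted over control, horizontal axis) of each SR protein gene in the unpaired edgeR fit (grey) and in the fit with the replicate number as a block (green), with 95% intervals and, dotted, the median of all tested genes. Intervals are narrower with the block, and those of Srsf1 and Srsf5 lie farthest from 0, at 0.15 to 0.44 and 0.19 to 0.48.

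SRSF9, once SRp30c, resembles SRSF1 with a short RS domain. Srsf9 (chromosome 5, 115327163 to 115333843) had the fewest counts of the family, 404 to 729 in a library. Its levels were 27.7, 22.99 and 22.6 CPM in controls and 32.2, 25.6 and 35.6 CPM in depleted libraries. It had the highest fold change of the 10 genes, 1.27-fold (log2 0.35), and also the widest interval, -0.11 to 0.80 in the unpaired fit. The paired interval ran from 0.02 to 0.66. The pairs differed by 0.21, 0.15 and 0.65 on the log2 scale, and neither edgeR fit called the gene (adjusted p = 0.594 and 0.160).

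SRSF10, also called SRp38, turns into a general splicing repressor when it is dephosphorylated in mitosis or after heat shock, and SRSF11 (p54) is an RS domain protein of nuclear speckles. Srsf10 (chromosome 4, 135855752 to 135869908) had 461, 533 and 429.8 CPM in controls and 497, 642 and 434 CPM after IAA. Srsf11 (chromosome 3, 158010915 to 158036667) had 284, 353 and 254 CPM in controls and 293, 383 and 262 CPM in depleted libraries. For each of them the libraries numbered 2 were the highest of their group and the depleted library was above its control in every pair. The differences between replicate numbers were wider than those between groups. The log2 fold changes were 0.14 and 0.07, and the paired edgeR fit, with intervals of -0.03 to 0.29 and -0.08 to 0.22, called neither (adjusted p = 0.272 and 0.578).

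**Figure D3:**
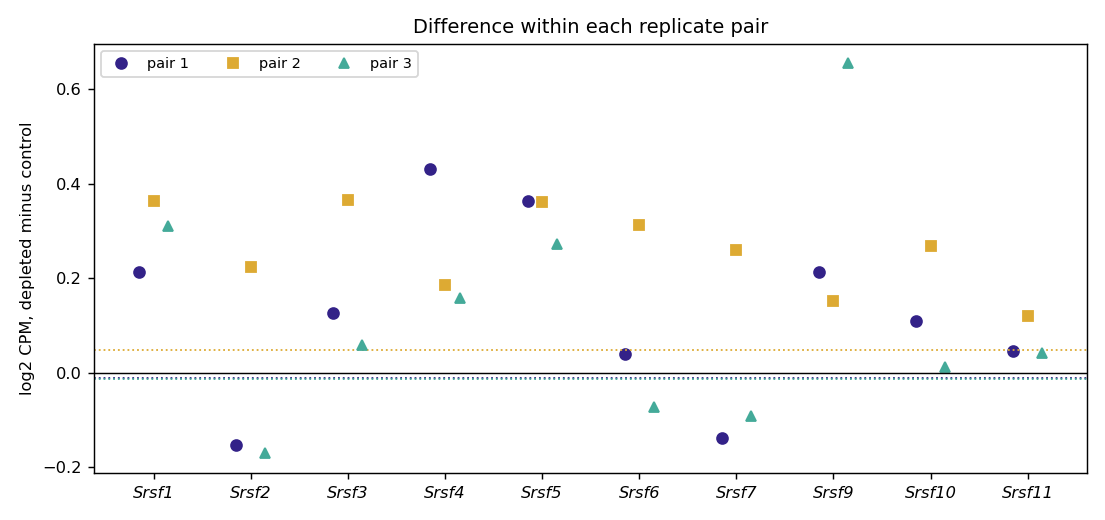
Log2 CPM of the depleted library minus that of the control with the same replicate number (vertical axis) for each SR protein gene, with the median over all genes of each pair dotted. In pair 2 all 10 genes lie above 0, while Srsf2 and Srsf7 lie below 0 in pairs 1 and 3, and Srsf9 reaches 0.65 in pair 3.

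The 10 genes together reached 3901, 3857 and 3637 CPM in the controls and 4189, 4725 and 3791 CPM in the depleted libraries. The sum was higher in each pair, but depleted replicate 3 lay below control replicates 1 and 2. Srsf5 made up 12.4 ± 0.612% of this sum in controls and 14.1 ± 1.63% in depleted libraries, and Srsf1 11.9 ± 0.593% and 13.1 ± 0.443%, each higher in 3 of 3 pairs. Srsf2 went from 14.2 ± 1.68% to 12.5 ± 0.645% and Srsf7 from 7.25 ± 0.182% to 6.59 ± 0.633%, and Srsf2, Srsf7 and Srsf11 had a lower share in all 3 pairs. Shares of 1 sum are not independent of each other, and these differences between members were not tested.

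The stretches before the start sites of Srsf1 and Srsf5, the members called in the paired fit, and of Srsf2 and Srsf7, whose neighbours are described further on, are shown from RefSeq (GRCm38.p6, the assembly that mm10 names). Each is the 250 bases before the listed start, on the gene's strand and 5′ to 3′, with matches to any of the motifs searched in capitals. Those of Srsf1 and Srsf2 lie wholly inside the longer interval that RefSeq gives for the gene, and those of Srsf5 and Srsf7 overlap that interval in part.
Srsf1, chr11:88047123-88047372, plus strand: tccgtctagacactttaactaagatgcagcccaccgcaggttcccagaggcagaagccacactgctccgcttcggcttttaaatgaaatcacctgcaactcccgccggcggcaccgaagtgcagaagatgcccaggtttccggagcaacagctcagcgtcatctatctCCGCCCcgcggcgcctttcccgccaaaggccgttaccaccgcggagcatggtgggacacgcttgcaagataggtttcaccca
Srsf5, chr12:80945249-80945498, plus strand: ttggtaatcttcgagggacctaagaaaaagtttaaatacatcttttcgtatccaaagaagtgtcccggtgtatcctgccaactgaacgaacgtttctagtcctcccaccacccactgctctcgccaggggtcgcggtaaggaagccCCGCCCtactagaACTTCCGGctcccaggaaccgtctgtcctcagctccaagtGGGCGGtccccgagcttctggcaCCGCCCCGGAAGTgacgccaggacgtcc
Srsf2, chr11:116853095-116853344, minus strand: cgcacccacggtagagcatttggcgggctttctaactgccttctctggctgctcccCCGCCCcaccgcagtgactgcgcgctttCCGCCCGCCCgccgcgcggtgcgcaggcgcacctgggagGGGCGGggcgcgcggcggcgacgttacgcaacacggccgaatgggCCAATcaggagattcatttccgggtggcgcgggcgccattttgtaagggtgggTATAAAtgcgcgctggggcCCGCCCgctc
Srsf7, chr17:80207306-80207555, minus strand: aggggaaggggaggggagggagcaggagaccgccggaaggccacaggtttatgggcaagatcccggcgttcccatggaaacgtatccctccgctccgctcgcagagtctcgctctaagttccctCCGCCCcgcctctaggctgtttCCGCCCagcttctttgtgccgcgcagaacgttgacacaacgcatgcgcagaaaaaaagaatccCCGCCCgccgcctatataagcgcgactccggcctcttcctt
All 10 genes had such a stretch, 13 in all because Srsf4 and Srsf11 have several starts. The GC box GGGCGG, on either strand, was found for 9 members, all but Srsf3, and in 56.5% of 14142 stretches of tested genes. The ETS site CCGGAAGT was found for Srsf4, Srsf5 (at 2 places, of which 1 overlaps a GC box) and Srsf11, against 5.52% of stretches. The TATA box TATAAA was found for Srsf2 and Srsf3 (6.60% of stretches), where it begins 29 and 18 bases before the start, and CCAAT for Srsf2, Srsf3 and Srsf10 (35.8%). The E-box CACGTG and the cAMP response element TGACGTCA were in none of the 13, against 8.18% and 2.48% of stretches. Of the called genes, Srsf5 held 3 GC boxes and Srsf1 held 1. These are matches of letters, with no measure of binding.

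Of the genes that adjoin SR protein genes, Mfsd11 and Mettl23 beside Srsf2 and Gemin6 beside Srsf7 fell in the paired fit, in which neither Srsf2 nor Srsf7 was called. RefSeq places 10 other genes over a member or within 1500 bases of it, and 8 of them were tested. They are outside the fixed choice of genes and were looked up because the counting is not stated to use strand, so reads of overlapping partners cannot be told apart. Of the 8 genes, 3 were called lower and 0 higher in the paired edgeR fit, against 7.9% and 4.96% of all genes. Mfsd11, a gene of the major facilitator superfamily, lies on the strand opposite to Srsf2 (chromosome 11, 116852211 to 116875660), overlaps it over 1465 bases and has its nearest listed start 668 bases from that of Srsf2. It stood at 18.8, 18.95 and 22.3 CPM in controls and at 7.01, 6.84 and 6.77 CPM in depleted libraries. All depleted values lay close together and far below every control. It fell 2.91-fold (log2 fold change -1.54, SE 0.22), and it was called in the unpaired edgeR fit (adjusted p = 0.0300), in the paired edgeR fit (adjusted p = 3.06e-04) and by DESeq2. The unpaired fit lost this call when any 1 library was left out (adjusted p = 0.0629 to 0.157, log2 fold change -1.58 to -1.47).

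On the other side of Srsf2, 156 bases beyond its last base, ends Mettl23, a methyltransferase gene on the opposite strand (chromosome 11, 116843515 to 116849740). Its level went from 10.5 ± 1.09 to 4.95 ± 0.836 CPM, with every depleted library below every control. The paired edgeR fit called it (log2 fold change -1.08, adjusted p = 0.0116), as did DESeq2 without a block (adjusted p = 0.0176), the unpaired edgeR fit did not (adjusted p = 0.147), and the paired fit lost it without replicate 2 or 3 (adjusted p = 0.0555 and 0.0680). Srsf2, between these genes, was interleaved between the groups, as given above.

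Gemin6 encodes a protein of the SMN complex, which loads Sm proteins onto spliceosomal snRNAs. It lies on the strand opposite to Srsf7, with a gap of 134 bases between the gene intervals but a nearest listed start 17146 bases away (chromosome 17, 80207504 to 80228497). Its levels were 45.6, 36.3 and 39.9 CPM in controls and 19.1, 22.2 and 26.3 CPM after IAA, so that the groups did not overlap. The log2 fold change was -0.85 in the unpaired (edgeR adjusted p = 0.105) and -0.86 in the paired fit (edgeR adjusted p = 0.00326), which kept the call when any 1 pair was left out. DESeq2 without a block called it too (adjusted p = 0.00485). Lrrc40, a leucine-rich repeat gene, lies 14 bases from Srsf11 on the opposite strand, and their nearest starts are 76 bases apart. It went from 60.1 ± 5.26 to 47.0 ± 11.4 CPM, lower in all 3 pairs, and just missed the threshold in the paired edgeR fit (log2 fold change -0.38, adjusted p = 0.0504). Gatc, which overlaps Srsf9 by 602 bases, Gm12992, which overlaps Srsf4 by 2248 bases, Gm16196 beside Srsf3 and Pnrc2 beside Srsf10 were called in neither fit. Gm12978 and Gm20337 were not tested. The difference in response between a member and its neighbour was not tested.

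**Figure D4:**
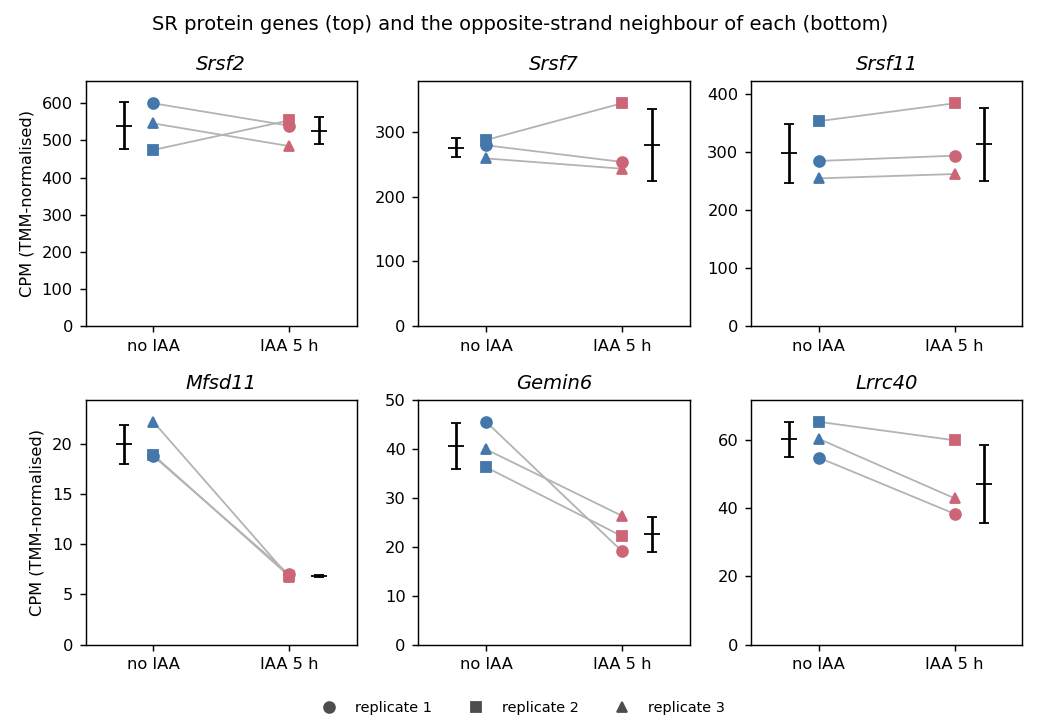
Levels in CPM (vertical axes, each from 0) of Srsf2, Srsf7 and Srsf11 (top) and of an opposite-strand neighbour of each (bottom). The neighbours drawn are Mfsd11, Gemin6 and Lrrc40. Libraries without IAA are blue and those after 5 h of IAA red, with mean ± SD (n = 3) in black. The other tested neighbours, Mettl23, Gm16196, Gm12992, Gatc and Pnrc2, are not drawn. Mfsd11 drops from 20.0 ± 1.94 to 6.87 ± 0.122 CPM while Srsf2 has means of 540.1 ± 63.0 and 526 ± 36.5 CPM.

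Among 35 relatives with an RS domain or direct partners of such proteins, all tested, 11 rose and 1 fell in the paired edgeR fit, which called 4.96% of all genes higher and 7.9% lower. The list's median log2 fold change was 0.19 in that fit and 0.20 in the unpaired one. Srrm2, which encodes a scaffold protein of nuclear speckles, rose 1.24-fold, to 1587 ± 152 CPM from 1278 ± 64.9 (adjusted p = 0.00813, edgeR with the block), and Srrm1, a splicing coactivator gene, rose 1.24-fold. Pnn, which encodes the exon junction protein pinin, went from 165 ± 9.09 to 228 ± 35.3 CPM (edgeR adjusted p = 0.00317 in the paired fit). Scaf4, whose protein binds the RNA polymerase II tail and restrains early polyadenylation, rose 1.33-fold and Cherp 1.30-fold, and Zranb2, a zinc finger splicing factor, went from 188 to 235 CPM. Srek1ip1, named for its product's interaction with the SR-related protein SREK1, fell 2.11-fold, from 20.5 ± 3.24 to 9.72 ± 1.12 CPM (paired edgeR adjusted p = 0.00261), with no overlap of the groups. It was the 1 gene of this list that DESeq2 called, and the unpaired edgeR fit did not (adjusted p = 0.0840). That unpaired fit called 0 of the 35, with 5 at an unadjusted p under 0.05, where 10.9% of all genes were. Pooled over both directions, that share is near the list's. By direction, 4 of the 35 were higher at that threshold, where 2.68% of all genes were. The paired fit called 3 to 5 higher genes and 1 lower when a pair was left out, with Pnn, Scaf4 and Srek1ip1 called each time.

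Of 15 tested genes for the kinases, phosphatase and importin of SR proteins, 5 rose and 1 fell in the paired edgeR fit (median log2 fold change 0.23). That fit called 4.96% of all genes higher and 7.9% lower. Srpk3 was at 0 in every library. CLK kinases phosphorylate SR proteins in the nucleus. Of their genes, Clk2 went from 126 ± 23.7 to 164 ± 29.3 CPM, Clk3 from 67.1 ± 11.1 to 99.9 ± 13.4 CPM and Clk4 from 124 ± 27.9 to 166 ± 43.3 CPM, while Clk1, named after its value was seen, had a log2 fold change of 0.03. Paired edgeR adjusted p-values of Clk2, Clk3 and Clk4 were 0.00652, 0.00168 and 0.00481. Of the SRPK kinases, which act mainly in the cytoplasm before import, the gene for SRPK1 rose from 284 ± 6.61 to 334 ± 16.96 CPM (adjusted p = 0.0496 with the block in edgeR). Srpk2 fell from 80.7 ± 22.8 to 43.8 ± 14.3 CPM (adjusted p = 1.69e-04 in the same fit). The phosphatase gene Ppp1ca rose 1.25-fold. The unpaired edgeR fit and DESeq2 called 0 of these 15. In edgeR 2 were at an unadjusted p under 0.05 in either direction, also near the 10.9% of all genes. By direction, 1 of the 15 was higher at that threshold, where 2.68% of all genes were. With any 1 pair left out, the paired fit called Clk2, Clk3, Clk4 and Srpk2.

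Of 19 genes for nonsense-mediated decay, which removes poison-exon transcripts, 3 rose and 0 fell in the paired edgeR fit, with a median log2 fold change of 0.18 (0.17 in the unpaired fit). That fit called 12.9% of all genes in either direction, so the number called in this list, with directions pooled, is near the share over all genes. By direction, 3 of the 19 were called higher and 0 lower, where 4.96% of all genes were called higher and 7.9% lower. The central helicase gene Upf1 went from 227 ± 35.6 to 280.2 ± 40.4 CPM and Smg5 from 334 ± 25.8 to 408 ± 35.5 CPM (adjusted p = 0.0148 and 0.0164, edgeR with the block). The other 16 passed neither fit. The paired fit called 0 of the list without replicate 1 or without replicate 3. The unpaired edgeR fit called 0, also at an unadjusted p under 0.05, and DESeq2 called 0.

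**Figure D5:**
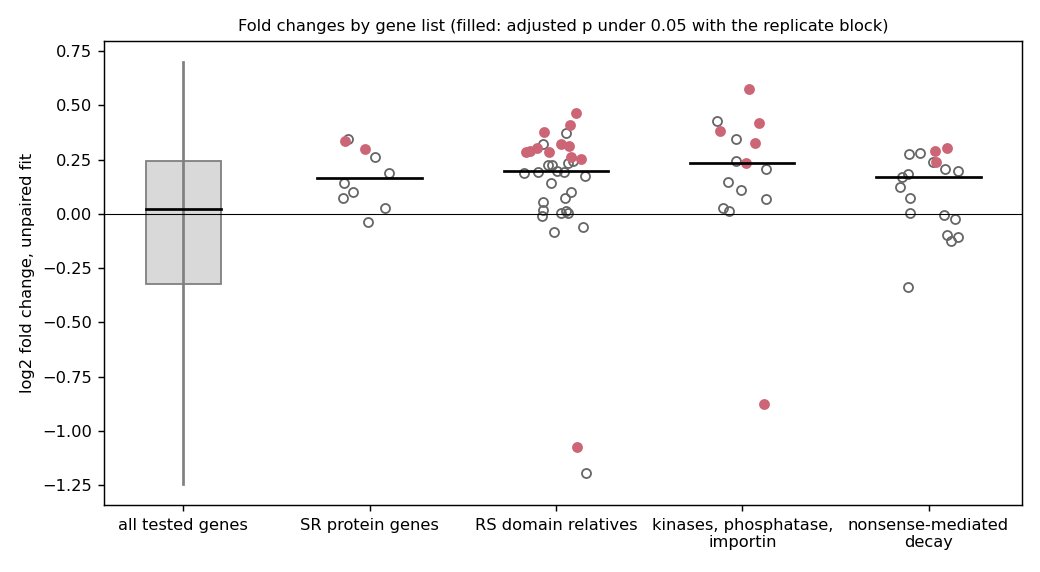
Log2 fold change in the unpaired edgeR fit (vertical axis) of each gene in 4 lists, with black lines at list medians and filled points for genes called in the fit with the replicate block. The box of all tested genes spans the quartiles with the 5th to 95th percentile as a line, and the list medians of 0.17, 0.20, 0.23 and 0.17 lie above its median of 0.02, as does that of the stem cell markers (0.13, not drawn).

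Outside these lists, the genes whose profile over the 6 libraries was nearest to the mean profile of the 10 members were Cdv3, Fbxo28, Ppfia1, Snrpb2 and Gmeb1. The measure was the root mean square distance between log2 CPM values centred on each gene's mean, among genes of at least 10 CPM. It was 0.0212 for Cdv3 and 0.0313 for Gmeb1, against a median of 0.262 over such genes and 0.0514 (Srsf3) to 0.233 (Srsf9) for the members themselves. Snrpb2 encodes the U2 snRNP protein B''. None of the 5 genes was called in either edgeR fit, with log2 fold changes of 0.13 to 0.20. They were picked for closeness to the members' mean profile, so their small distances and similar fold changes follow from the choice.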

How the data were processed

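4sU-labelled RNA was measured in 6 libraries. The table the authors deposited holds whole-number estimated counts per gene. HISAT2 2.2.1, StringTie 2.2.1, DESeq2 1.42.0 and mm10 are named in the submitters' processing notes with no role, and strandedness is not given in the sources used here. Where genes overlap or have near-identical copies, such estimates may split the reads.

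The main test was that of edgeR 4.0.16 in R 4.3.3 (filterByExpr by group, TMM scaling, robust quasi-likelihood test, Benjamini-Hochberg adjustment over 17573 genes, threshold 0.05). Standard errors and 95% intervals follow from the F statistic and its degrees of freedom. The spread that the p-values measure is that of these 6 libraries and may be technical. DESeq2 1.42.0, other scalings, no filter and omitted libraries were alternatives.

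The labels number replicates 1 to 3 in both groups. Deviations from group means correlated across genes at 0.268, 0.387 and 0.321 for equal numbers and at -0.265 to -0.0250 for others. Libraries of equal number were therefore treated as pairs, on the basis of the data and not of the labels. Such deviations cancel out within a group, so positive values for equal numbers force negative ones among the others, which are no separate support. The calls of the paired fit rest on this pairing, which was chosen from the same data.

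Members and lists were chosen with earlier results of these data known. The named genes are the members, Zfp207, the called genes of each other list (up to 6 a direction by paired fold change) and the 5 nearest profiles; 1 called gene of the decay list is not reported here.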

Additional observations from a re-analysis of the deposited data

How the results depend on the processing

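The replicate block moved the counts of calls: 2 members, 12 RS domain relatives, 6 kinase, phosphatase and importin genes, 3 decay genes and 2259 of all genes, against 0, 0, 0, 0 and 139 in the unpaired fit. DESeq2 called 641 genes in all, 1 of them an RS domain relative and 0 of them members. Leaving out 1 library left 0 or 1 call among all genes, and the members' median then ran from 0.046 to 0.24. Leaving out a pair from the fit with the replicate block gave 949, 1418 and 1428 calls without replicates 3, 1 and 2, 1 or 2 members, 4 to 6 RS domain relatives, 4 kinase genes and 0 to 3 decay genes, the last 3 counts being alternatives chosen after seeing the data. The median over all genes moved between -0.04 and 0.04 with the scaling.

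Of 140 member values under alternatives, 122 kept direction and call, 6 were newly called (Srsf1 and Srsf5, each with the block) and 12 changed sign, all uncalled. Srsf7 was -0.039 on library totals. With 1 library left out, log2 fold changes ran from -0.12 to 0.046 for Srsf2, -0.15 to 0.11 for Srsf7, -0.027 to 0.25 for Srsf10 and -0.097 to 0.22 for Srsf11, and from -0.19 to 0.75 for Zfp207, -0.19 to 0.62 for Srsf12, -2.20 to 0.062 for Gm16196 and -0.30 to 0.28 for Gm12992. With 1 pair left out of the block fit they ran from -0.16 to 0.026 for Srsf2 (0.020 without replicate 3), -0.017 to 0.16 for Srsf6, -0.12 to 0.084 for Srsf7, -0.072 to 0.56 for Srsf12, -1.51 to 0.41 for Gm16196 and -0.38 to 0.21 for Gm12992. The cause was not tested. Srsf12 had 20 to 75 counts a library, and its unpaired 95% interval ran from -0.88 to 1.62.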

Other observations

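Outside the 10 members, 2 further rows of the table carry the family name. Srsf12, which encodes an SR protein with little expression in these cells, had 20 to 75 counts a library and stood at 1.58 ± 0.382 CPM in controls and 2.04 ± 1.14 CPM in depleted libraries (SD, n = 3). It was called in neither edgeR fit (adjusted p = 0.869 unpaired and 0.794 paired). Srsf3-ps, a processed copy of Srsf3 on chromosome 11, had 141 to 313 counts and stood at 8.42 ± 0.992 and 10.6 ± 3.19 CPM (edgeR adjusted p = 0.757 unpaired and 0.427 paired). Reads of Srsf3 and of this copy may have been divided between the rows by the counting.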
